A study of Rattus norvegicus with 9 samples.

Results

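The genes described here encode 10 proteins of the synaptic vesicle cycle: the SNARE proteins Snap25 and Stx1a, the SNARE-disassembly ATPase Nsf, the synaptotagmins Syt1 and Syt6, the vesicle glycoproteins Sv2a and Sv2b, the synapsins Syn1 and Syn2, and the endocytic adaptor Pacsin1. Every probe set whose platform annotation gave exactly 1 of these symbols was taken, which gave 19 of the 31099 probe sets on the array and 10 of the 14217 genes with a probe set of 1 symbol. The 10 genes were chosen by name with measured differences between the 3 groups in view. Which of the 3 comparisons guided the choice is not recorded, so all are counted as used. The values of these genes are therefore a description, and no test of them is offered.

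RNA was measured on 9 Affymetrix Rat Genome 230 2.0 arrays, 1 per pup, from cerebral cortex of Hsd:Sprague Dawley rats on postnatal day 4. Diets of the parental generations held 0 ppm (control, 3 arrays), 750 ppm (3 arrays) or 2500 ppm (3 arrays) of 4-methylimidazole (4-MeI), a nitrogen heterocycle formed when foods brown. Exposure ran continuously through successive breedings, and each pup was the only one taken from its F2b litter. Dams with seizures are named in the title, but the labels tie no array to one, and they give no sex of the pups.

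Neurotransmitter leaves a nerve terminal when a vesicle fuses with the plasma membrane. A SNARE protein on the vesicle zips together with Snap25 and syntaxin on the target membrane, and synaptotagmin triggers this step when calcium enters. Nsf then pulls the spent SNARE complex apart, synapsins tether reserve vesicles, and endocytic proteins such as Pacsin1 retrieve the membrane. In the newborn rodent cortex these terminals are still forming.

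All 9 arrays had median log2 intensities between 7.67 and 7.71. Neuronal markers were present: all 14 pan-neuronal genes passed the filter on dim probe sets, and so did 9 of the 10 cortical excitatory markers with a probe set, Tbr1 being the exception. Markers of bordering tissue were also present and differed between groups. The mean level of 15 striatal genes, relative to its mean over all arrays, lay between 0.32 and 0.74 in controls, between -0.98 and 0.61 at 750 ppm and between -1.05 and -0.08 at 2500 ppm. For 16 meningeal genes the ranges were -1.12 to -0.17 in controls, 0.33 to 0.57 at 750 ppm and -0.01 to 0.40 at 2500 ppm, and for 8 choroid plexus genes they were -0.69 to -0.53, -0.43 to -0.24 and 0.23 to 1.37 in the same order. The mean of the 14 pan-neuronal genes stayed between -0.05 and 0.08 on every array, which does not bound each gene. Replicate 3 of the controls and replicate 3 at 750 ppm stood apart on the first principal component. The score of control replicate 3 was -25.19, where the other controls had -8.64 and -9.47, and that of 750 ppm replicate 3 was 14.98, where the others had -5.97 and -11.25. Results are therefore also given without these arrays.

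Nsf and Syn2 shared a pattern on all of their probe sets, highest at 750 ppm and lowest at 2500 ppm in mean level. Pacsin1 on 1368958_at and Sv2b on 1369627_at had the same order of means, but not on their other probe sets. The promoter windows of Nsf and Syn2 are printed here with that of Syn1, the synapsin that did not share the pattern. The windows come from RefSeq on assembly GRCr8 and run from 250 bases before to 50 bases after the annotated start, on the strand of the gene. Nsf lies at chr10:89357334-89357633 on the minus strand, Syn2 at chr4:149858669-149858968 on the plus strand and Syn1 at chrX:3725495-3725794 on the plus strand. Capitals mark GC boxes (GGGCGG) and cAMP response elements (CRE, TGACGTCA), read on both strands.
Nsf: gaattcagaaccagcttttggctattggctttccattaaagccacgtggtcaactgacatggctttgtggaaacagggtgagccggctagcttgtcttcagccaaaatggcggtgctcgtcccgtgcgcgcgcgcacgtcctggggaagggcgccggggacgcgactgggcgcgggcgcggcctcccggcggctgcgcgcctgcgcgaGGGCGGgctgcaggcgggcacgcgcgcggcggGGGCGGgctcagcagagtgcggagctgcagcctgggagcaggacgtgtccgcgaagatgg
Syn2: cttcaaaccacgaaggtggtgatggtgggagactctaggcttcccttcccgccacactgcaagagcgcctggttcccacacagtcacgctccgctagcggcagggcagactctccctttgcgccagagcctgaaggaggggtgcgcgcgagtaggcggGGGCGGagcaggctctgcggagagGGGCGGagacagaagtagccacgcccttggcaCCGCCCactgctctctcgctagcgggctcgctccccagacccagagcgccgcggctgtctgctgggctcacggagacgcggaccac
Syn1: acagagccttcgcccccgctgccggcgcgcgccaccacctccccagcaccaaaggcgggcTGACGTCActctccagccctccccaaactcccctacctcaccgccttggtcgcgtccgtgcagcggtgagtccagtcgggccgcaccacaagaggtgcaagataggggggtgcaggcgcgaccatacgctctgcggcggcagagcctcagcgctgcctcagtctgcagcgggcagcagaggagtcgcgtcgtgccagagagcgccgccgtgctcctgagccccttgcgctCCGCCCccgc
Of the 10 genes, 8 had a window in the table. Their GC content lay between 59.7% and 71.0%, all above the median of 51.7% over 33469 rat promoter windows, and was 68.7% for Nsf, 67.7% for Syn2 and 71.0% for Syn1. A GC box stood in 6 of the 8 windows, against 33.1% of all windows, with 2 in Nsf, 3 in Syn2 and 1 in Syn1. The CRE stood in 1 of the 8, Syn1, against 1.83% of all. Other motifs were searched, also on both strands. The CCAAT box (CCAAT) stood in 3 of the 8 windows against 37.5% of all, the E-box (CACGTG) in 2 against 6.42%, and the TATA box (TATAAA) in 0 against 14.2%. No motif searched contains another, and a match says only that the letters are there. The shares of all windows were not matched for GC content, so they are no measure of enrichment in these genes.

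**Figure D1:**
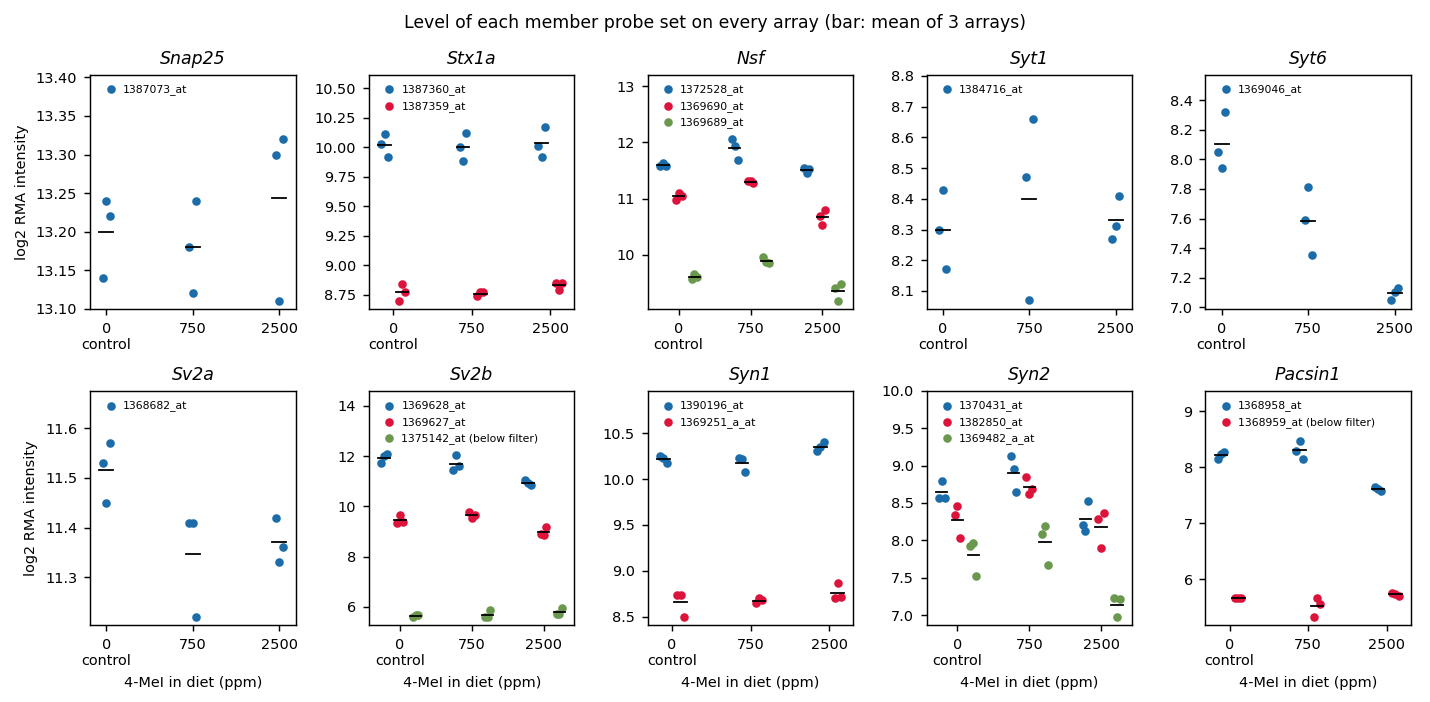
Log2 RMA intensity of each of the 19 probe sets (y axis, with its own scale per gene) on every array at 0 (control), 750 and 2500 ppm of 4-MeI in the diet (x axis); points are arrays, colours are probe sets and black bars are means of 3 arrays. Nsf and Syn2 have their highest means at 750 ppm and their lowest at 2500 ppm, while the means of Snap25 stay between 13.18 and 13.24.

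Values are log2 intensities after the robust multi-array average (RMA), so a difference of 1 is a doubling of intensity. Levels of different probe sets are not compared, since each set of probes has its own brightness. Of the 19 probe sets, 17 passed the filter that left out the dimmest 30% of the array. Those past it had means of at least 7.59, and the other 2, 1 each of Sv2b and Pacsin1, had means of 5.71 and 5.64. SE values come from a limma model of all 9 arrays, and a probe set is said to pass where its Benjamini-Hochberg adjusted p over all 21729 tested probe sets was under 0.05.

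The SNARE proteins of the plasma membrane differed little between groups. Snap25, the palmitoylated SNARE of the terminal membrane, had log2 levels of 13.14, 13.24 and 13.22 in controls, 13.18, 13.12 and 13.24 at 750 ppm, and 13.30, 13.11 and 13.32 at 2500 ppm. The groups overlapped, and the log2 difference of 2500 ppm from control was 0.04 (SE 0.07, n = 3 against 3). Stx1a, the syntaxin that pairs with it, had 10.03, 10.11 and 9.92 in controls, 10.00, 9.88 and 10.12 at 750 ppm, and 10.01, 9.92 and 10.17 at 2500 ppm on probe set 1387360_at. Its other probe set, 1387359_at, gave differences of -0.01 (SE 0.06) at 750 ppm and 0.06 (SE 0.06) at 2500 ppm against control. The 2500 ppm arrays lay above those at 750 ppm on this probe set, by 0.07 (SE 0.06), and the groups overlapped in the other comparisons of Stx1a.

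Nsf, the ATPase that recycles SNARE complexes after fusion, was lowest at 2500 ppm on each of its 3 probe sets. On 1369690_at it had 10.98, 11.10 and 11.04 in controls, 11.31, 11.31 and 11.28 at 750 ppm, and 10.69, 10.53 and 10.79 at 2500 ppm. No array of any group reached into the range of another. Its mean was 10.67 (SD 0.13) at 2500 ppm against 11.30 (SD 0.02) at 750 ppm, a log2 difference of -0.63 (SE 0.07) or 0.647 times the intensity. Against controls, at 11.04 (SD 0.06), the 2500 ppm level differed by -0.37 (SE 0.07) and the 750 ppm level by 0.26 (SE 0.07).

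The other Nsf probe sets kept the same order of groups. On 1369689_at, levels were 9.57, 9.66 and 9.61 in controls, 9.97, 9.87 and 9.86 at 750 ppm, and 9.42, 9.18 and 9.49 at 2500 ppm. On 1372528_at they were 11.58, 11.64 and 11.58 in controls, 12.06, 11.93 and 11.69 at 750 ppm, and 11.54, 11.45 and 11.52 at 2500 ppm. Neither probe set had an overlap between any 2 groups. The 3 probe sets were close at 750 ppm against control, with differences of 0.26 to 0.29. They spread more at 2500 ppm against control, from -0.37 on 1369690_at through -0.25 on 1369689_at to -0.10 on 1372528_at, and from -0.63 to -0.39 at 2500 ppm against 750 ppm. On GRCr8, Nsf lies on chromosome 10 from 89227937 to 89357383.

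Of the synaptotagmins, Syt6 was lower with each step in concentration and Syt1 was not. Syt1, the fast calcium sensor of vesicle release, had 8.30, 8.43 and 8.17 in controls, 8.47, 8.07 and 8.66 at 750 ppm, and 8.27, 8.31 and 8.41 at 2500 ppm. Its groups overlapped, with a wide spread at 750 ppm (SD 0.30), and it differed from control by 0.03 (SE 0.14) at 2500 ppm. Syt6, a synaptotagmin studied for its part in the acrosome reaction of human and mouse sperm, had 8.05, 7.94 and 8.32 in controls, 7.59, 7.81 and 7.35 at 750 ppm, and 7.05, 7.10 and 7.13 at 2500 ppm. All 3 groups stood apart. The log2 difference from control was -0.52 (SE 0.13) at 750 ppm and -1.01 (SE 0.13) at 2500 ppm, where the intensity was 0.497 times that of controls. Each of these genes was measured by 1 probe set, so neither has a second reading on the array. Syt6 lies on chromosome 2 of GRCr8 from 193781051 to 193840741.

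Of the SV2 glycoproteins, which share a transporter-like fold in the vesicle membrane, Sv2b carried the larger differences. On 1369628_at Sv2b had 11.72, 11.99 and 12.08 in controls, 11.43, 12.06 and 11.61 at 750 ppm, and 11.06, 10.93 and 10.84 at 2500 ppm. Every 2500 ppm array lay below every other array, while the controls and the 750 ppm arrays overlapped. The log2 difference was -0.98 (SE 0.16) from control and -0.75 (SE 0.16) from 750 ppm. Sv2a, the SV2 protein that binds the antiseizure drug levetiracetam, had 11.53, 11.45 and 11.57 in controls, 11.41, 11.41 and 11.22 at 750 ppm, and 11.42, 11.33 and 11.36 at 2500 ppm. Its controls lay above all treated arrays, by a small margin. Its difference from control was -0.17 (SE 0.07) at 750 ppm and -0.15 (SE 0.07) at 2500 ppm, and the treated groups overlapped.

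The brighter Sv2b probe sets shared a direction at 2500 ppm and parted at 750 ppm. On 1369627_at Sv2b had 9.33, 9.67 and 9.37 in controls, 9.77, 9.54 and 9.66 at 750 ppm, and 8.90, 8.84 and 9.17 at 2500 ppm. Here too the 2500 ppm arrays lay below all others. Its difference from control was -0.48 (SE 0.12) at 2500 ppm, less than on 1369628_at, but 0.21 (SE 0.12) at 750 ppm where the other gave -0.23 (SE 0.16). Between the treated groups they gave -0.69 and -0.75, 0.07 apart. A further probe set, 1375142_at, was below the filter, with means of 5.65 (SD 0.06) in controls, 5.67 (SD 0.16) at 750 ppm and 5.80 (SD 0.15) at 2500 ppm, and did not show the lower level. Sv2b lies on chromosome 1 of GRCr8 from 138388268 to 138562635.

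Synapsins coat the vesicle and hold it in the reserve pool. Syn2 had the pattern of Nsf, and Syn1 did not. On 1369482_a_at Syn2 had 7.92, 7.96 and 7.52 in controls, 8.09, 8.19 and 7.67 at 750 ppm, and 7.23, 6.97 and 7.21 at 2500 ppm. The 2500 ppm arrays lay below all others, and replicate 3 was the lowest array in both of the other groups. The difference was -0.85 (SE 0.16) from 750 ppm and -0.67 (SE 0.16) from control. On 1370431_at it had 8.57, 8.79 and 8.57 in controls, 9.13, 8.95 and 8.64 at 750 ppm, and 8.21, 8.12 and 8.53 at 2500 ppm. On 1382850_at it had 8.34, 8.46 and 8.03 in controls, 8.85, 8.62 and 8.68 at 750 ppm, and 8.28, 7.90 and 8.36 at 2500 ppm. That last probe set was the one on which the 2500 ppm and control arrays overlapped.

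The 3 Syn2 probe sets shared a direction in each comparison but not a size. Between 2500 ppm and 750 ppm they ran from -0.85 to -0.54, with no overlap between the groups on any of them. At 750 ppm against control they ran from 0.18 to 0.44, and the groups stood apart on 1382850_at alone. The smallest of these, on 1369482_a_at, was 0.04 without control replicate 3 and 0.34 without 750 ppm replicate 3, and that on 1370431_at was 0.15 without 750 ppm replicate 1 and 0.40 without 750 ppm replicate 3. Against control, the 2500 ppm differences ran from -0.67 to -0.10, and the smallest turned to 0.04 without 2500 ppm replicate 2. Syn1 had 10.25, 10.23 and 10.17 in controls, 10.23, 10.22 and 10.08 at 750 ppm, and 10.31, 10.35 and 10.40 at 2500 ppm on 1390196_at. The 2500 ppm arrays were the highest by a small margin, 0.14 (SE 0.06) from control, and the other Syn1 probe set gave 0.10 (SE 0.08). Syn2 lies on chromosome 4 of GRCr8 from 149858919 to 150016845.

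Pacsin1, a membrane-bending adaptor that links endocytosis to the actin cytoskeleton, was lower at 2500 ppm and overlapped the controls at 750 ppm. On 1368958_at it had 8.15, 8.24 and 8.27 in controls, 8.29, 8.47 and 8.14 at 750 ppm, and 7.64, 7.62 and 7.57 at 2500 ppm. The 2500 ppm arrays lay close together and below all others. Its mean of 7.61 (SD 0.04) at 2500 ppm compared with 8.22 (SD 0.07) in controls, a log2 difference of -0.61 (SE 0.08) or 0.656 times the intensity, and the difference from 750 ppm was -0.69 (SE 0.08). The second probe set, 1368959_at, was below the filter and did not show this, with means of 5.67 in controls, 5.52 at 750 ppm and 5.73 at 2500 ppm. Pacsin1 lies on chromosome 20 of GRCr8 from 5719929 to 5769492.

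**Figure D2:**
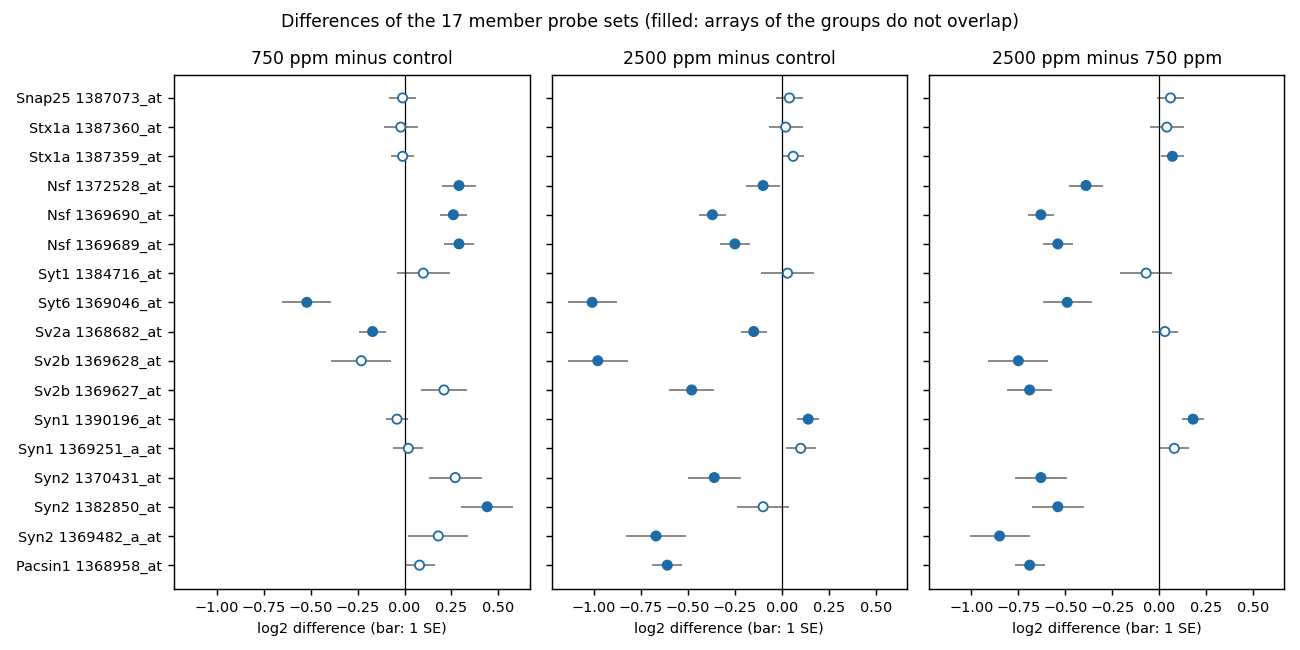
Log2 difference (x axis) of the 17 probe sets past the filter (y axis) at 750 ppm against control, 2500 ppm against control and 2500 ppm against 750 ppm; bars are 1 SE of the limma model, and filled points mark groups of 3 arrays that do not overlap. In the 2500 ppm against 750 ppm panel 10 filled points lie below 0, on Nsf, Syt6, Sv2b, Syn2 and Pacsin1, and Snap25, Stx1a, Sv2a and Syt1 lie between -0.07 and 0.07.

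Counted over the 17 probe sets, the arrays at 2500 ppm lay wholly below the controls on 10 and wholly above on 1, where 13.4% of all tested probe sets lay below and 9.87% above. Set against the 750 ppm arrays, those at 2500 ppm lay below on 10 and above on 2, where 9.52% of all lay below and 7.88% above. At 750 ppm against control they were 2 below and 4 above, where 6.58% lay below and 7.61% above. The median log2 difference was -0.15 at 2500 ppm and 0.08 at 750 ppm against control, and -0.49 between the treated groups, while over all tested probe sets each median was within 0.01 of 0. Since the genes were picked with these differences known, the counts say nothing of vesicle genes in general, and probe sets of 1 gene are not separate observations.

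The sizes were recomputed with each array left out in turn. Syt6 stayed between -1.09 and -0.90 at 2500 ppm against control, Sv2b on 1369628_at between -1.09 and -0.91 and Pacsin1 between -0.65 and -0.58. Nsf on 1369690_at stayed between -0.69 and -0.56 at 2500 ppm against 750 ppm, and on 1369689_at it ran from -0.31 to -0.16 at 2500 ppm against control. Sv2b on 1369628_at at 750 ppm against control ran from -0.41 to -0.09, and was 0.03 with array weights. Without both control replicate 3 and 750 ppm replicate 3, Syt6 was at -0.29 at 750 ppm and -0.90 at 2500 ppm against control, Sv2b on 1369628_at at -0.91 and Pacsin1 at -0.58 at 2500 ppm against control, and Nsf on 1369690_at at -0.64 and Syn2 on 1369482_a_at at -1.01 at 2500 ppm against 750 ppm. Without these arrays, a choice made after seeing the data, the 2500 ppm arrays lay wholly below the controls on 10 of the 17 probe sets and above on 1, where 19.6% of all tested probe sets lay below and 16.4% above, and below the 750 ppm arrays on 10 and above on 2, where 21.9% and 18.6% did. At 750 ppm against control 4 lay below and 7 above, where 21.1% and 23.7% did.

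**Figure D3:**
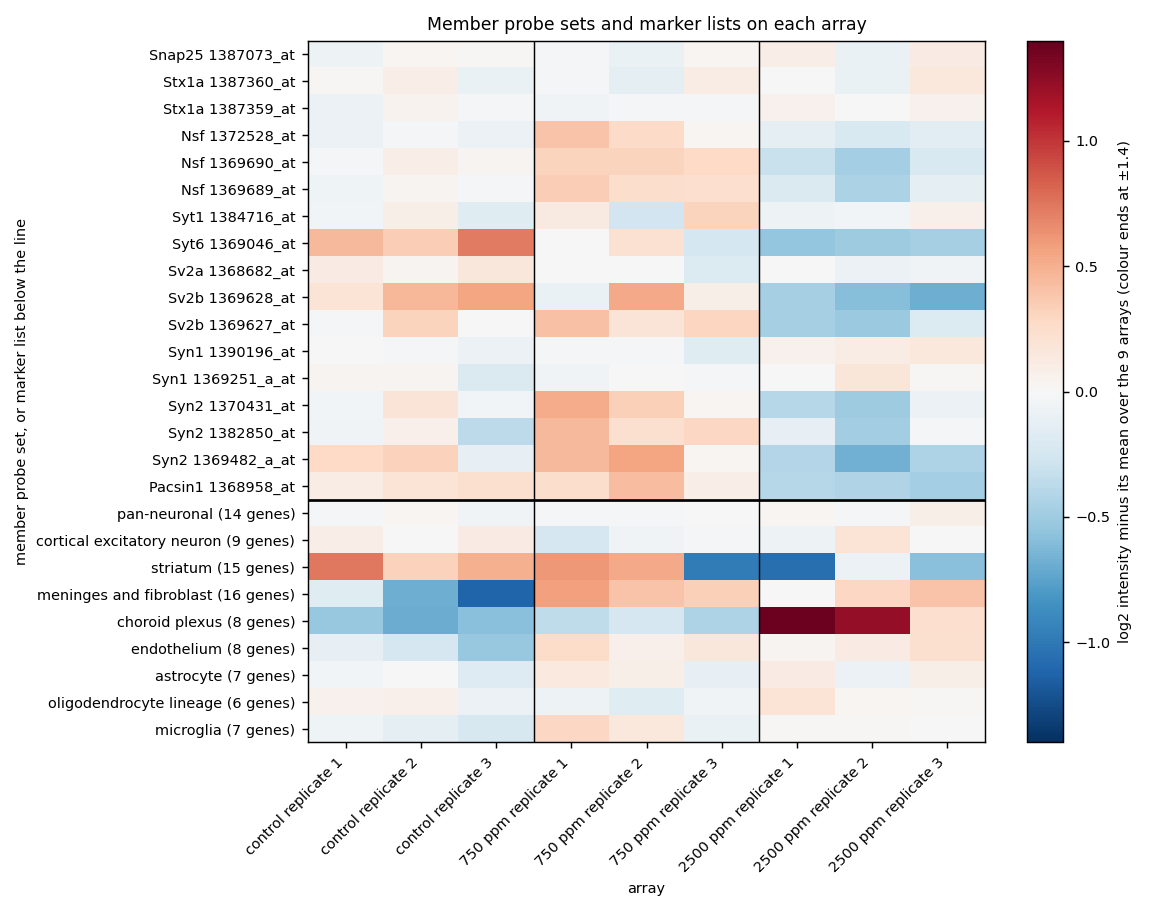
Log2 intensity minus its mean over the 9 arrays (colour) for the 17 probe sets above the line and for the mean of each marker list below it, with arrays along the x axis. The striatal list is low on 750 ppm replicate 3 (-0.98) as on 2500 ppm replicate 1 (-1.05), the choroid plexus list is high on 2500 ppm replicates 1 (1.37) and 2 (1.23), and the pan-neuronal list stays between -0.05 and 0.08.

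Marker lists of bordering tissue differed between groups. At 750 ppm against control the medians were -0.43 for striatal, 1.21 for meningeal and 0.02 for choroid plexus genes. At 2500 ppm against control all 15 striatal genes were below 0, with a median of -1.13, all 16 meningeal genes were above 0, with a median of 0.86, and 7 of 8 choroid plexus genes were above 0, with a median of 0.65. Between 2500 ppm and 750 ppm the medians were -0.68, -0.22 and 0.59. Pan-neuronal genes had medians of 0.01 at 2500 ppm against control and 0.00 against 750 ppm, with 5 and 7 of 14 below 0. Cortical excitatory genes had -0.12 and 0.20 there, with 5 and 3 of 9 below 0. At 750 ppm against control their median was -0.18, with 8 of 9 below 0. Over the arrays their mean relative level ran from -0.24 (750 ppm replicate 1) to 0.19 (2500 ppm replicate 2). All 8 endothelial genes were above 0 against control, with a median of 0.38 at 2500 ppm and 0.46 at 750 ppm, and 5 of 8 were below 0 at 2500 ppm against 750 ppm, with a median of -0.03. At 2500 ppm against control and against 750 ppm, the medians were 0.01 and 0.02 for astrocyte genes, 0.08 and 0.16 for oligodendrocyte lineage genes and 0.08 and -0.14 for microglial genes. Below the filter were Six3 of the striatal list, Foxc1 of the meningeal list, Kl and Otx2 of the choroid plexus list, Olig2 of the oligodendrocyte list and Itgam of the microglial list. The part of the tissue mixture in these differences was not tested, and in bulk tissue fewer cells of a type and less RNA per cell cannot be told apart.

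The rest of the vesicle cycle was read from 5 lists of 123 genes, of which 106 were tested on their brightest probe set. Few of them passed. The lists were drawn up with earlier results of these data known, so the counts are a description. At 750 ppm against control 1 gene passed, lower, where 0.00920% of all tested probe sets passed as lower and 0.00% as higher. Of the 106, 40 were below 0, with a median log2 difference of 0.03. At 2500 ppm against control 1 passed, lower, where 0.405% of all passed as lower and 0.281% as higher, 88 and 61 in number, and 71 lower and 74 higher after a second quantile normalization. There 46 genes were below 0, with a median of 0.01. At 2500 ppm against 750 ppm 1 passed higher and 1 lower, where 0.152% of all passed as higher and 0.170% as lower, and 61 genes were below 0, with a median of -0.02. At an unadjusted p under 0.05, 5 were higher and 5 lower, then 7 and 11, then 9 and 11, in the same order of comparisons. Those are 9.43%, 17% and 18.9% of the 106, where 10.1%, 16.0% and 12.6% of all tested probe sets reached that level.

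Rims2, an active zone scaffold that docks vesicles near calcium channels, fell at 2500 ppm. It had 8.56, 8.73 and 8.57 in controls, 8.59, 8.72 and 8.50 at 750 ppm, and 8.10, 8.03 and 8.16 at 2500 ppm. Every 2500 ppm array lay below all others. The log2 difference was -0.53 from control (SE 0.08, limma adjusted p = 0.0266) and -0.51 from 750 ppm (SE 0.08, limma adjusted p = 0.0396). The list that holds Rims2 was drawn up with earlier results of these data known, so these p values are no independent test. Over 19 alternatives the adjusted p ran from 0.00375 to 0.105 against control, where 14 kept the call, and from 0.00828 to 0.157 against 750 ppm, where 10 kept it. The call against control was lost without any 1 of the 2500 ppm arrays or of control replicates 2 and 3. Apart from the replicate block, the call against 750 ppm was lost without any 1 of the 2500 ppm arrays, of control replicates 1 and 2 or of 750 ppm replicates 1 and 2, and with only these groups in the fit.

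Cplx3 encodes a complexin, a family that binds SNARE complexes and sets the timing of fusion, and was lower at 750 ppm than in both other groups. It had 8.32, 8.08 and 8.27 in controls, 7.48, 7.21 and 7.28 at 750 ppm, and 8.37, 8.32 and 8.36 at 2500 ppm. The 750 ppm arrays stood apart below the rest, unlike those of Nsf and Syn2, which were highest at that concentration. Cplx3 was listed with its earlier result in these data known, so its p values are no independent test. It rose at 2500 ppm relative to 750 ppm by 1.03 (SE 0.09, limma adjusted p = 0.00469), a call kept in all 19 alternatives (adjusted p 0.0017 to 0.0367). Against control it fell by 0.90 at 750 ppm (SE 0.09, limma adjusted p = 0.0310), a call kept in 13 of 19 (adjusted p 0.00307 to 0.317) and lost without control replicates 2 or 3, without any 1 of the 2500 ppm arrays, and with only these groups in the fit.

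**Figure D4:**
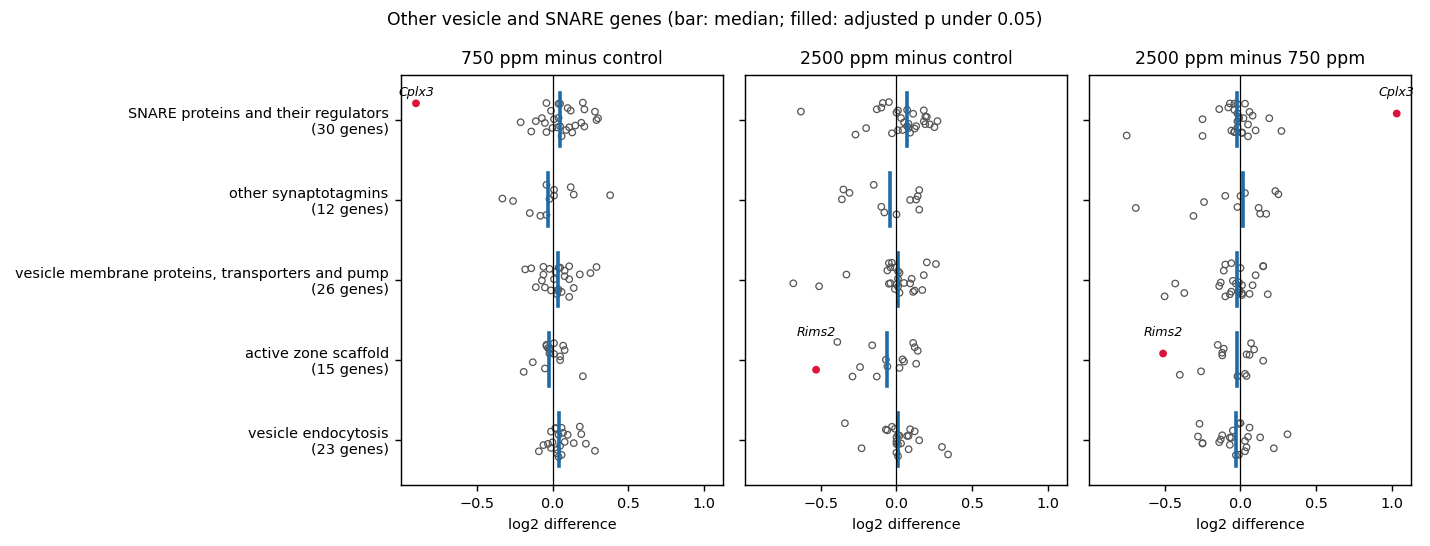
Log2 difference (x axis) of each of the 106 other vesicle and SNARE genes by list (y axis) in the 3 comparisons; each point is a gene on its brightest probe set, blue bars are list medians and filled points passed an adjusted p of 0.05. Medians lie between -0.06 and 0.07, and the filled points are Cplx3 and Rims2.

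The remaining members of the lists are given as values, since none passed. Only the brightest probe set is read. Stxbp6, Napg, Syt7, Syt17, Synpr, Syngr2 and Dnm3 had 2 tested probe sets and Itsn1 had 3, and their further readings are not given. Among 30 SNARE proteins and regulators, the median was 0.07 at 2500 ppm against control and 0.05 at 750 ppm. Stxbp6, which binds syntaxin and Snap25 in place of a vesicle SNARE, was at -0.63 from control (SE 0.17, limma adjusted p = 0.120) and -0.75 from 750 ppm (SE 0.17, limma adjusted p = 0.118). The adaptors that bring Nsf to the SNARE complex are Napa, Napb and Napg. Napb was at -0.20 at 2500 ppm from control (SE 0.08) and -0.25 from 750 ppm (SE 0.08), Napa at 0.18 (SE 0.06) and -0.01 (SE 0.06), and Napg at 0.05 (SE 0.10) and -0.25 (SE 0.10). At 750 ppm against control Napg was at 0.30 (SE 0.10, limma adjusted p = 0.363), Napa at 0.19 (SE 0.06) and Napb at 0.05 (SE 0.08). There the arrays of Napa lay above the controls, and those of Napg and Napb overlapped them.

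Of 12 other synaptotagmins, 0 passed in any comparison, with 3, 3 and 6 at an unadjusted p under 0.05. Those are 25%, 25% and 50%, where 10.1%, 16.0% and 12.6% of all tested probe sets reached that level. The 6 were 3 higher and 3 lower. Syt7, a slow calcium sensor, was at -0.36 from control at 2500 ppm (SE 0.10, limma adjusted p = 0.120), and Syt12 at -0.35 (SE 0.11, limma adjusted p = 0.168). Syt11, which binds no calcium, was at -0.33 at 750 ppm (SE 0.08, limma adjusted p = 0.201), the smallest p of the list in that comparison. Syt17 was at -0.69 at 2500 ppm against 750 ppm with a wide error (SE 0.29). Its 750 ppm arrays were at 10.20, 9.94 and 8.84, and the last, replicate 3, lay below every 2500 ppm array.

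Of 26 vesicle membrane proteins, transporters and pump subunits, 0 passed, with 1, 2 and 2 at an unadjusted p under 0.05. Those are 3.85%, 7.69% and 7.69%, where 10.1%, 16.0% and 12.6% of all tested probe sets reached that level. Synpr, a synaptophysin relative, was at -0.68 at 2500 ppm from control (SE 0.27, limma adjusted p = 0.263), and Slc32a1, the vesicular GABA transporter, at -0.51 (SE 0.27, limma adjusted p = 0.394). On 750 ppm replicate 3 Synpr was at 11.13, where the other 750 ppm arrays had 12.21 and 12.26. Slc32a1 was at 9.02 on that array, where the others had 10.21 and 10.05. Syngr2 was at 0.20 at 2500 ppm from control (SE 0.06, limma adjusted p = 0.152). Besides Rims2, the 15 active zone genes held Ppfia2, a liprin scaffold, at -0.29 (SE 0.11, limma adjusted p = 0.236) and Lin7a at -0.39 (SE 0.18). On the 750 ppm arrays Lin7a was at 7.46, 7.77 and 6.92, the last being replicate 3. Of 23 endocytosis genes, 0 passed, with 1, 4 and 4 at an unadjusted p under 0.05. Those are 4.35%, 17.4% and 17.4%, beside the same shares of all tested probe sets. Dnm3, a dynamin that severs endocytic necks, was at -0.34 at 2500 ppm from control (SE 0.11, limma adjusted p = 0.195), Itsn1 at 0.30 (SE 0.10) and Pacsin3, a relative of Pacsin1, at 0.34 (SE 0.13, limma adjusted p = 0.250).

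The genes with profiles most like those of Sv2b and Syt6, the members with the widest ranges over the 9 arrays on their brightest probe sets (1.24 and 1.27), were found by the mean absolute difference of centred log2 levels among 11605 genes. For Sv2b the nearest was Cdh22, a cadherin, at a mean absolute difference of 0.14, with -1.18 at 2500 ppm from control, followed by Bod1l1 at 0.15. For Syt6 the nearest was Itih3, a hyaluronan-associated heavy chain, at 0.14, with -0.89 at 2500 ppm from control and -0.39 at 750 ppm, followed by Asb2 at 0.16, with -1.03 and -0.70. LOC100912031 came next for both, at 0.15 for Sv2b and 0.16 for Syt6. All of these profiles come from the same 9 arrays.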

How the data were processed

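RNA of 9 pups was hybridised to 1 array each. Per the submitters' processing notes, the authors processed the arrays with affy and RMA, and the deposited values are log2 intensities per probe set (background-corrected, quantile-normalized between arrays and summarised over probes, as RMA does). Versions are not given in the sources used here. Quantile normalization hides changes in total RNA, and RMA compresses differences near background.

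The 57 control probe sets and the 30% of the others with the lowest mean (under 6.35) were left out, and 21729 were fitted with 1 mean per group in limma 3.58.1 under R 4.3.3. Tests were two-sided, with Benjamini-Hochberg adjustment within each comparison and a threshold of 0.05. With 3 arrays a group, the smallest p an exact permutation test allows is 0.1. The number of arrays limits the precision. Pups came from separate litters.

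Symbols came from the platform annotation, and all 19 matched GRCr8 by gene identifier. The genes of interest, the pathway and marker lists and the tests were chosen with earlier results of these data known, Cplx3 among them. Named from the pathway lists were genes past the threshold and up to 4 per list and comparison by p. The alternatives concerned filter, scaling, replicate block, variance model, arrays fitted, probe sets per gene and each array left out. Probe sequences were not analysed here.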

Additional observations from a re-analysis of the deposited data

How the results depend on the processing

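The counts of probe sets past the threshold were 2 at 750 ppm against control, 149 at 2500 ppm against control and 70 at 2500 ppm against 750 ppm. Other filters, scalings and the trended robust variance kept each within 1.5 times. Array weights gave 340, 1495 and 721, fits of only the groups compared 1, 481 and 14, and 1 probe set per gene 1, 66 and 40, the last from fewer features tested. Without both control replicate 3 and 750 ppm replicate 3 the counts were 71, 263 and 1149. Leaving out single arrays gave 0 to 48, 9 to 466 and 13 to 731. The counts of pathway genes, 1, 1 and 2, were 2, 9 and 5 with array weights, 0, 2 and 1 with only the groups compared, and 2, 2 and 9 without both arrays, and ran from 0 to 2, 0 to 3 and 1 to 8 with single arrays left out. With the replicate number as a block the probe set counts were 2, 122 and 36, and the pathway counts 1, 1 and 1. At 2500 ppm against 750 ppm, the block ended the call of Rims2 (adjusted p = 0.0772). Correlations of deviations from group means ran from -0.209 to 0.312 over the 9 same-numbered pairs, with 3 above 0.1. Of the 9 arrays, 4 correlated best with their own number. With 3 arrays a group, these values cannot decide whether the numbers pair the arrays. The cause of these shifts was not tested.

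Over 19 alternatives, 942 differences of the vesicle and SNARE probe sets were recomputed and 32 changed sign, all among differences of at most 0.23 in size. For the means over probe sets, Nsf at 2500 ppm against control was -0.24 and Sv2b -0.73, against -0.10 and -0.98 on the brightest probe set alone. Dim probe sets limit what can be read, since the low ones of Sv2b and Pacsin1 lay under the filter. The only probe set of Syt6 (mean 7.59) and Syn2 on 1369482_a_at (mean 7.64) were also fairly dim. Both dropped out where the lowest 50% of probe sets was left out.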
